A study of Homo sapiens with 12 samples.

Results

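The DNA replication and origin licensing genes are 48 genes whose products mark replication origins, load and start the replicative helicase, copy DNA and supply its precursors. They were taken by symbol from the 58037 rows of the count table, and all 48 were found there. By role they fall into 7 MCM genes, 6 subunits of the origin recognition complex, 6 licensing and firing factors, 4 GINS subunits, 5 subunits of the RFC clamp loader, 3 clamp and lagging strand genes, 9 polymerase and primase subunits, 3 RPA subunits and 5 genes of nucleotide supply. Every member had enough counts to be tested in each comparison.

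In G1 phase, the origin recognition complex, CDC6 and CDT1 load the MCM2-7 ring onto DNA, a step called licensing. In S phase, the kinase CDC7 with its activator DBF4 and the factors CDC45 and GINS turn loaded rings into active helicases, and RPA coats the exposed single strands. Polymerase alpha with primase starts each strand, RFC loads the sliding clamp PCNA, and polymerases delta and epsilon extend the strands. Many of these genes are known targets of E2F factors and are transcribed mainly in cells that are about to divide, so they are widely read as marks of proliferation in tumour cells.

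RNA-seq was performed on 12 samples of 2 human prostate cancer lines, with 3 samples per group. DU-145 is an androgen-insensitive line, and LNCaP-AI cells were selected from the LNCaP derivative C4-2B for growth without androgen. Both carried a tet-inducible vector for a single MUC1 shRNA (tet-MUC1shRNA). The sample labels put both lines in phenol red-free medium with charcoal-stripped serum, whereas the methods of the study describe it for LNCaP-AI and give RPMI1640 with ordinary heat-inactivated serum for DU-145. The medium of DU-145 is thus uncertain, and where it differed, medium and line cannot be told apart. One group of each line received vehicle for 7 days (0 ng/ml DOX, labelled shCTL) and the other 500 ng/ml DOX to silence MUC1-C (labelled shMUC1). DOX itself and the shRNA cannot be told apart with these groups, and the sources used here do not say whether the cells were single clones. MUC1, the targeted gene, had 74, 60 and 59 counts in DU-145 vehicle and 3 counts in each DU-145 DOX sample. In LNCaP-AI, it had 36, 25 and 52 counts with vehicle and 8, 6 and 3 with DOX. Samples held 10423437 to 13544153 counts in DU-145 and 16569613 to 26961777 in LNCaP-AI. Among the prostate luminal markers, KLK3, KLK2, HOXB13 and FOLH1 were at 0 in every DU-145 sample. The epithelial genes KRT8 and KRT18 were abundant in both lines. CD3E was at 0 in all 12 samples, and PTPRC stayed under 0.1 CPM, the count scaled to the TMM-normalized library size. Other stromal and blood markers were not absent. COL1A1 was at 17.6 to 24.3 CPM in LNCaP-AI and 1.76 to 3.63 CPM in DU-145. VWF in LNCaP-AI had means of 3.93 CPM with vehicle and 7.5 CPM with DOX, without a call.

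The LNCaP-AI samples did not divide by treatment alone. A principal component analysis of log2 CPM without the listed genes gave a first component with 82.7% of the variance, on which vehicle 1 grouped with DOX 2 and DOX 3 (side A) while DOX 1 grouped with vehicle 2 and vehicle 3 (side B). Treatment was parted by the second component, with 12.1% of the variance. The labels name no batch that matches the sides, and what divides them was not tested. Changes are therefore also given within each side, as DOX 2 and DOX 3 against vehicle 1 on side A and DOX 1 against vehicle 2 and vehicle 3 on side B. In DU-145, the first component (70.9%) separated vehicle from DOX.

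The promoters of 5 members are shown, since these members carry the main patterns below: RFC3 and MCM10 had the lowest log2 fold changes among called members in LNCaP-AI, DBF4 had the lowest in DU-145, and MCM7 and ORC3 went up in DU-145. Each window covers 250 bases before to 50 bases after a RefSeq start on GRCh38.p14, 5′ to 3′ on the strand of the gene. Capitals mark the E2F letters TTTGGCGC, TTTCCCGC, TTTCGCGC and TTTGCCGC, the CCAAT box and the CHR letters TTTGAA, each on either strand. In MCM7, an E2F and a CCAAT match overlap by 1 base. RFC3 lies at chr13:33817899-33818198 (+), MCM10 at chr10:13161308-13161607 (+), DBF4 at chr7:87876243-87876542 (+), MCM7 at chr7:100101348-100101647 (-; 1 of 3 windows listed for it) and ORC3 at chr6:87589885-87590184 (+).
RFC3: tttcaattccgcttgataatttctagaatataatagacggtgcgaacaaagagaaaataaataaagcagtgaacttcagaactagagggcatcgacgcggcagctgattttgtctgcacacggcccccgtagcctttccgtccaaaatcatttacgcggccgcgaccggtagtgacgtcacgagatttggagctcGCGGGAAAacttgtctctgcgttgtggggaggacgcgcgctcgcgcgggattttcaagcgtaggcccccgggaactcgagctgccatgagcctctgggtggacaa
MCM10: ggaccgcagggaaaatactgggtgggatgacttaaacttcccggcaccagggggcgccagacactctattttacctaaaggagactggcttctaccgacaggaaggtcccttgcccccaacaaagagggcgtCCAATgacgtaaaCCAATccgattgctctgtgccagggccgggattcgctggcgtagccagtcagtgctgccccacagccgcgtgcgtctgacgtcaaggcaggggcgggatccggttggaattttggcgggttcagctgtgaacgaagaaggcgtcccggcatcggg
DBF4: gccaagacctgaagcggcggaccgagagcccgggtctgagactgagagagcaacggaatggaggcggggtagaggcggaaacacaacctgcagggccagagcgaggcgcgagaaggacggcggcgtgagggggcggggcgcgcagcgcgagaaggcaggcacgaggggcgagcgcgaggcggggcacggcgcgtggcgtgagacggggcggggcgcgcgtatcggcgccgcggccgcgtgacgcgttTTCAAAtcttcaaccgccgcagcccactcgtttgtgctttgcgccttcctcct
MCM7: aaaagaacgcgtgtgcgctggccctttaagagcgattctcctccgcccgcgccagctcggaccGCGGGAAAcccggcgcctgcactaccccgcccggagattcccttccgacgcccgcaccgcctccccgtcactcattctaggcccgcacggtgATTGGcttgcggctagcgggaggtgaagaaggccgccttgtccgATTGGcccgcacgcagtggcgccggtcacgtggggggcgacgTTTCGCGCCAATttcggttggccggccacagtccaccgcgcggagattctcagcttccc
ORC3: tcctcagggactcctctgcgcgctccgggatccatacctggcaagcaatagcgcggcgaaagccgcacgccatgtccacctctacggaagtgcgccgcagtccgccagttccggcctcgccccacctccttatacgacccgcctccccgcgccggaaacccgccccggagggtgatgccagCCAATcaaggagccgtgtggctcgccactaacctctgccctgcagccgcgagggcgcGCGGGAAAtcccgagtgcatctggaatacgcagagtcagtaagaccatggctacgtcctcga

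RFC3, MCM7 and ORC3 hold E2F letters, MCM10 holds CCAAT boxes without these exact letters, and DBF4 holds the CHR letters alone. The MCM7 window was picked from its 3 because it holds E2F letters, so that match was fixed by the choice. Near matches were not marked, such as TTTGGCGG in the MCM10 window, which differs from TTTGGCGC in its last letter. A window was listed for 42 of the 48 members, and MCM4, MCM5, GINS4, POLD3, RPA2 and RPA3 had none. E2F letters stood in at least 1 window of 21 of the 42 members (50%). The share was 3.99% of all 27305 genes with a window and 6.37% of the 11909 such genes that were tested here. CCAAT stood in 57.1% of members with a window (39.7% of all genes) and the CHR letters in 7.14% (18.2% of all genes), namely in DBF4, DUT and RRM1. These are matches of letters, not measured binding. Only 4 exact stretches of 8 letters were searched for E2F, so members without them may hold other E2F sites. The comparison therefore does not part E2F targets from other genes. Members with and without these E2F letters had like changes with DOX. In LNCaP-AI, the median log2 fold change was -0.80 over the 21 with E2F letters and -0.76 over the 21 without, and 12 of each were called lower. In DU-145, the medians were -0.23 and -0.16, with 11 and 10 called lower and 2 of each called higher.

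The first comparison asked what happens to these genes when MUC1-C is silenced in each line. With DOX, 24 of the 48 were called lower in DU-145 and 27 in LNCaP-AI. Summed over the 48 members, the level in DU-145 was 5642, 5750 and 5535 CPM with vehicle and 5172, 4930.2 and 4996 CPM with DOX. In LNCaP-AI, the sum was 6529, 6621 and 6333 CPM with vehicle and 4710.3, 3572 and 3550.0 CPM with DOX. No DOX sample reached a vehicle sample of its line, and LNCaP-AI DOX 1 lay between vehicle and the other DOX samples. A gene was called when edgeR's quasi-likelihood test gave a Benjamini-Hochberg adjusted p under 0.05 over all genes tested. In DU-145, 24 members were called lower, 5 higher and 19 neither, in a comparison that called 51.5% of all 13644 genes, 25.3% lower and 26.3% higher. When all 12 samples shared 1 fit, 10 were called lower and 1 higher (ORC3), and POLA1, RFC4, RPA2, POLD2 and PRIM2 were among those that lost their call (adjusted p = 0.0863, 0.123, 0.0556, 0.0801 and 0.146 by edgeR). The median log2 fold change of the 48 was -0.19 in either fit, against 0.001 over all genes in the first. In LNCaP-AI, 27 members were called lower and 0 higher, where 12.7% of 16030 genes were called, 5.52% lower and 7.22% higher. DESeq2 also called 0 members higher, and 0 had an unadjusted p under 0.05 in that direction. The median was -0.79, against -0.05 over all genes, and 47 of the 48 fold changes were negative. In DU-145, the groups did not overlap for 29 members lower with DOX and 6 higher, against 27.7% and 29.6% of all genes. In LNCaP-AI, this was so for 40 and 0 members, against 17.6% and 19.8% of all genes, and DOX 1 was above both DOX 2 and DOX 3 for 46 of the 48. The LNCaP-AI calls rested on single samples. Without DOX 2 or without DOX 3, 0 members were called (36 had an unadjusted p under 0.05 and a negative fold change in each). Without vehicle 2, 13 were called, 15 without vehicle 3 and 41 without DOX 1. The number of all genes called also moved with the sample left out, so these shifts are not particular to the members. With no sample left out, 42 members and 5003 of 16030 genes had an unadjusted p under 0.05 in either direction.

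**Figure D1:**
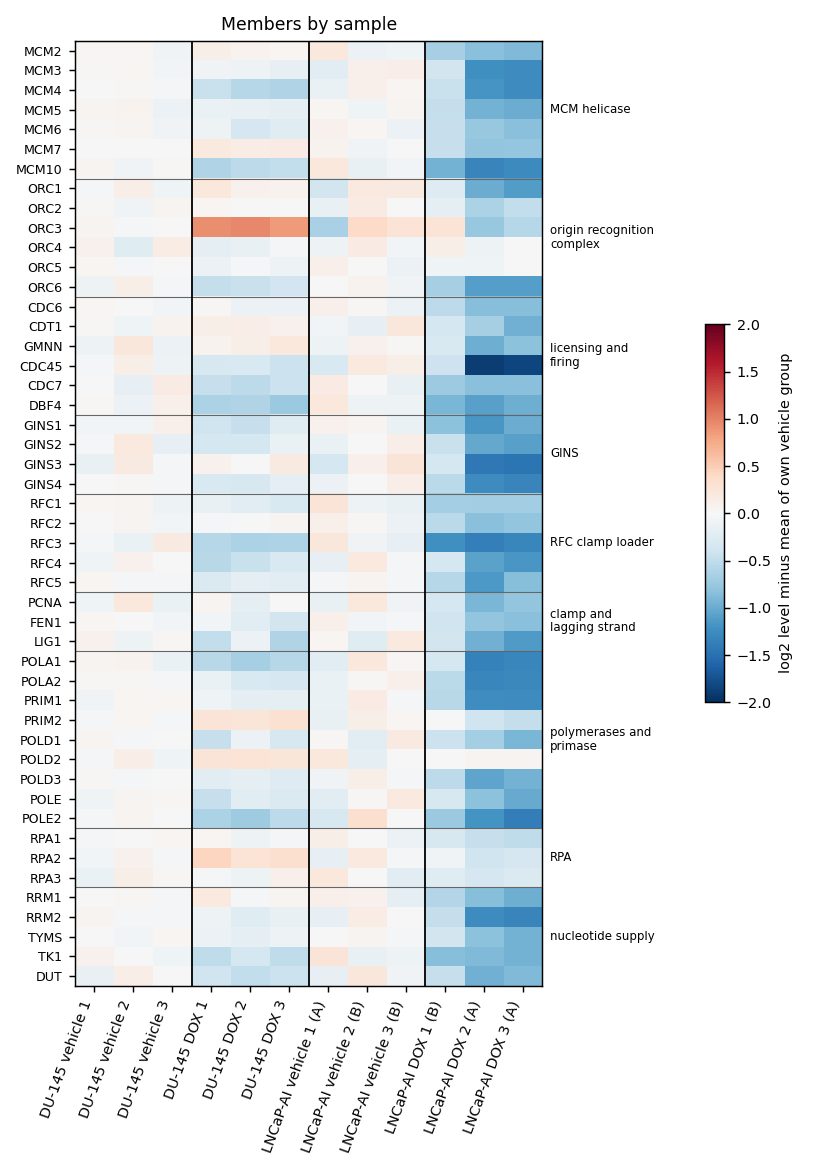
Level of each of the 48 members (rows, grouped by role) in each of the 12 samples (columns), as log2 CPM minus the mean of the vehicle samples of the same line, from blue (lower) to red (higher). LNCaP-AI columns carry their side, A or B. The DOX columns of LNCaP-AI are blue in nearly every row, palest in DOX 1, while ORC3 stands out in red in DU-145 DOX.

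Of the members, 18 were called lower in both lines. MCM7 was called higher in DU-145 and lower in LNCaP-AI. A further 6 were called lower in DU-145 alone and 8 in LNCaP-AI alone, 4 were called higher in DU-145 with no call in LNCaP-AI, and 11 had no call in either line. Line by line, 25.3% of all genes were called lower and 26.3% higher in DU-145, and 5.52% and 7.22% in LNCaP-AI. How many of all genes were called in both lines was not counted, so these joint counts have no background share. A call in one line alone does not show that the lines differ, which was tested separately. Within sides of LNCaP-AI, 46 of 48 members were lower in both, with medians of -0.94 on side A and -0.47 on side B. Over all genes, these medians were -0.05 and -0.004, and 6644 of 16030 genes were lower in both. With the side as a covariate, 42 members were called lower, among 6271 genes called. In these bulk samples, fewer cycling cells and less RNA of these genes per cell cannot be told apart.

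**Figure D2:**
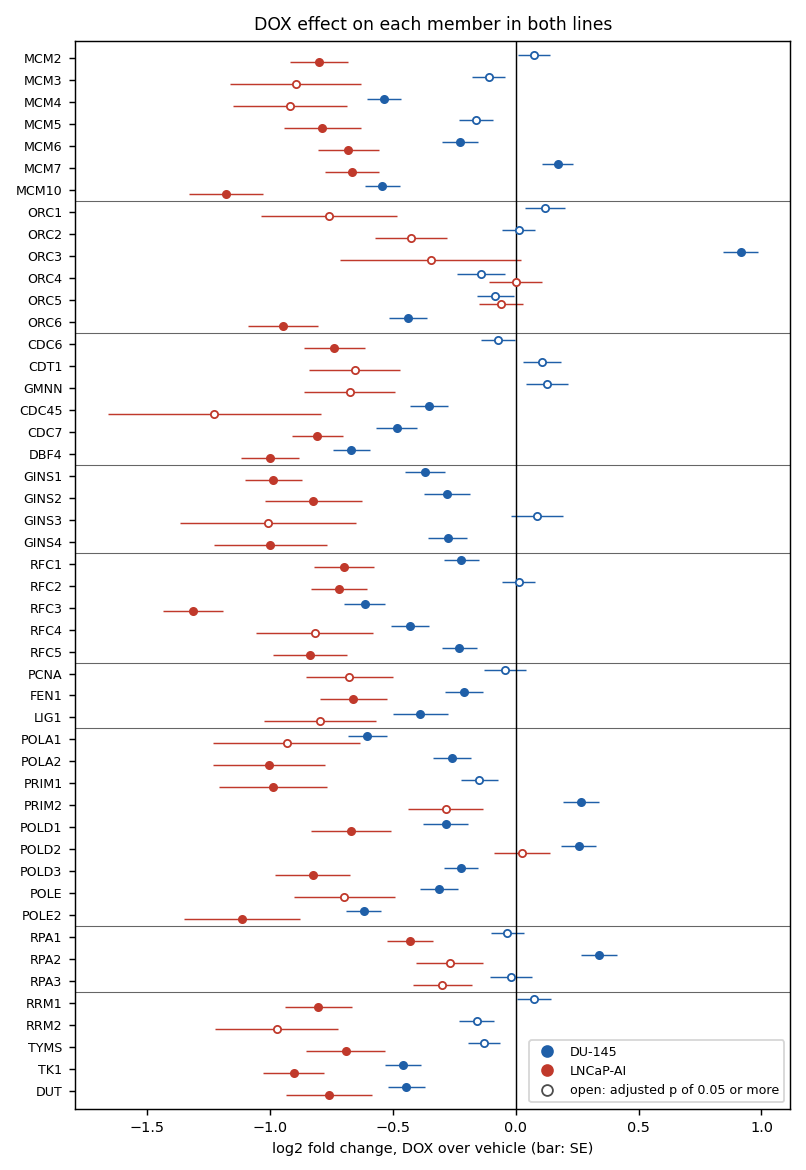
Log2 fold change of each member with DOX (x axis; bars are SE) in DU-145 (blue, 3 against 3 samples) and LNCaP-AI (red, 3 against 3 samples). Filled points had an adjusted p under 0.05. LNCaP-AI points lie left of those of DU-145 for 46 of 48 members in the fit that compared the lines.

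The MCM genes encode the helicase ring (MCM2 to MCM7) and MCM10, which binds the active helicase. In DU-145, 3 of the 7 were called lower (MCM4, MCM6 and MCM10), 1 higher (MCM7) and 3 neither. In LNCaP-AI, 5 were called lower, all 7 fold changes were negative, and no DOX sample overlapped vehicle for any of the 7. MCM10 was at 97.5, 89.4 and 96.3 CPM with vehicle and 62.0, 65.8 and 66.7 CPM with DOX in DU-145, a log2 fold change of -0.54 ± 0.07 (SE; adjusted p = 3.13e-06). In LNCaP-AI, MCM10 was at 135, 105 and 112 CPM with vehicle and 60.8, 46.8 and 48.0 CPM with DOX, a log2 fold change of -1.18 ± 0.15 (adjusted p = 0.0133). The groups did not overlap in either line, and the log2 difference in LNCaP-AI was -1.51 on side A and -0.83 on side B. The ring subunits did not move together in DU-145. MCM4 fell there by 0.54 on the log2 scale (SE 0.07; adjusted p = 3.28e-06), while MCM2 gave 0.07 ± 0.07 (adjusted p = 0.374). MCM7 in DU-145 was at 184, 184 and 186 CPM with vehicle and 211, 205 and 208 CPM with DOX, apart but with a log2 fold change of only 0.17 ± 0.06 (adjusted p = 0.0301). That call was made in 5 of 13 alternative fits, with adjusted p between 0.0291 and 0.191. In LNCaP-AI, MCM7 was at 417, 378 and 401 CPM with vehicle and 289, 231 and 234 CPM with DOX (log2 fold change -0.67 ± 0.11, adjusted p = 0.0197). MCM3 and MCM5 had no call in DU-145 (-0.11 ± 0.07 and -0.16 ± 0.07), and MCM6 was lower in both lines (-0.23 ± 0.07 and -0.68 ± 0.12). In LNCaP-AI, MCM3 (-0.89 ± 0.27, adjusted p = 0.0785) and MCM4 (-0.92 ± 0.23, adjusted p = 0.0523) missed the threshold with the widest errors of the group. Reads of MCM7 may include some of AP4M1, whose exons cover 7.9% of those of MCM7 on the opposite strand and which had 3144 counts in all against 54931.

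The origin recognition complex binds origins before licensing. In DU-145, 1 of its 6 genes was called lower (ORC6) and 1 higher (ORC3), and in LNCaP-AI 1 was called lower (ORC6) and 0 higher, with 3 at an unadjusted p under 0.05, all of them lower. ORC6 was at 56.5, 66.0 and 60.1 CPM with vehicle and 43.6, 44.5 and 46.4 CPM with DOX in DU-145 (log2 fold change -0.44 ± 0.08, adjusted p = 0.000106). LNCaP-AI cells had 46.3, 48.8 and 44.4 CPM of ORC6 with vehicle and 29.2, 21.5 and 21.6 CPM with DOX (log2 fold change -0.94 ± 0.14, adjusted p = 0.0168). It was the only subunit called lower in both lines. ORC3 had the highest log2 fold change of the 48 in DU-145. There it was at 51.3, 48.2 and 49.4 CPM with vehicle and 94.5, 96.3 and 89.8 CPM with DOX, a rise of 1.89-fold (log2 fold change 0.92 ± 0.07, adjusted p = 3.61e-09), which was called in all 13 alternative fits. In LNCaP-AI, ORC3 was at 26.2, 53.3 and 49.5 CPM with vehicle and 49.5, 24.3 and 27.6 CPM with DOX. Those levels followed the side and not the treatment: the 3 samples of side A were at 24.3 to 27.6 CPM and the 3 of side B at 49.5 to 53.3 CPM. The log2 difference was -0.02 within side A and -0.05 within side B, and the fit over all 6 samples gave -0.35 ± 0.37 (adjusted p = 0.577). ORC1 gave 0.12 ± 0.08 in DU-145 and -0.76 ± 0.28 in LNCaP-AI, and ORC2 gave 0.01 ± 0.07 and -0.43 ± 0.15, with no call in either line. ORC4 and ORC5 likewise had no call in either line and overlapping groups in LNCaP-AI, with log2 fold changes of 0.00 ± 0.11 and -0.06 ± 0.09.

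Among licensing and firing factors, the kinase pair CDC7 and DBF4 was called lower in both lines. DBF4 was at 98.5, 89.4 and 105 CPM with vehicle and 62.6, 63.9 and 57.9 CPM with DOX in DU-145, where its log2 fold change of -0.67 ± 0.08 was the lowest of the 48 (adjusted p = 6.35e-07). In LNCaP-AI, DBF4 was at 109, 87.0 and 87.4 CPM with vehicle and 49.8, 44.1 and 47.6 CPM with DOX (log2 fold change -1.0 ± 0.12, adjusted p = 0.0123). The groups were apart in both lines. CDC7 gave -0.48 ± 0.08 (adjusted p = 7.53e-05) and -0.81 ± 0.10 (adjusted p = 0.0136). The loading factor CDC6 was at 139, 136 and 130.2 CPM with vehicle and 137, 124 and 124 CPM with DOX in DU-145, with overlap and no call (log2 fold change -0.07 ± 0.07, adjusted p = 0.399). In LNCaP-AI, CDC6 was at 162, 154 and 139 CPM with vehicle and 105, 83.7 and 83.3 CPM with DOX (log2 fold change -0.74 ± 0.12, adjusted p = 0.02). CDT1 and its inhibitor geminin (GMNN) had no call in either line, although all their LNCaP-AI DOX samples were below vehicle. CDC45, a part of the active helicase, differed between the sides. In LNCaP-AI, it was at 59.1, 83.7 and 79.0 CPM with vehicle and 54.7, 19.6 and 20.4 CPM with DOX. DOX 1 sat just under vehicle 1, and the log2 fold change of -1.23 ± 0.43 had an adjusted p of 0.117. Within sides, CDC45 changed by -1.56 (A) and -0.57 (B) on the log2 scale.

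GINS is the 4-subunit partner of CDC45 in the helicase. In each line, 3 of 4 were called lower and GINS3 was not. GINS1 was at 52.3, 52.3 and 57.9 CPM with vehicle and 41.0, 39.3 and 45.7 CPM with DOX in DU-145 (log2 fold change -0.37 ± 0.08, adjusted p = 0.000831). In LNCaP-AI, GINS1 was at 205, 199.8 and 176 CPM with vehicle and 109.7, 86.4 and 97.5 CPM with DOX (log2 fold change -0.99 ± 0.12, adjusted p = 0.0123). The other subunits called were GINS2 (-0.28 ± 0.09 in DU-145, -0.82 ± 0.20 in LNCaP-AI) and GINS4 (-0.28 ± 0.08 and -1.0 ± 0.23). GINS3, the subunit with the lowest mean CPM per kb with vehicle, gave 0.09 ± 0.10 in DU-145 and -1.01 ± 0.36 in LNCaP-AI (adjusted p = 0.118). The level of GINS1 in LNCaP-AI with DOX stayed above that in DU-145 with vehicle.

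The RFC complex opens PCNA and loads it onto DNA, and 4 of its 5 subunits were called lower in each line. RFC3 was at 59.4, 55.6 and 68.9 CPM with vehicle and 41.2, 39.3 and 39.9 CPM with DOX in DU-145 (log2 fold change -0.61 ± 0.08, adjusted p = 5.61e-06). The LNCaP-AI samples were at 173, 140.3 and 132 CPM with vehicle and 63.2, 57.0 and 59.4 CPM with DOX. That log2 fold change, -1.31 ± 0.12 (adjusted p = 0.0123), was the lowest of the 48, and RFC3 was below -1 within both sides (-1.57 and -1.11). RFC1, the large subunit, gave -0.22 ± 0.07 in DU-145 and -0.70 ± 0.12 in LNCaP-AI, and RFC5 gave -0.23 ± 0.07 and -0.84 ± 0.15, all called. RFC4 was called in DU-145 (-0.43 ± 0.08) but not in LNCaP-AI (-0.82 ± 0.24, adjusted p = 0.0752). RFC2 was not called in DU-145 (93.0, 98.2 and 91.0 CPM with vehicle, 93.0, 94.0 and 97.4 CPM with DOX). In LNCaP-AI, RFC2 was at 111, 105 and 96.2 CPM with vehicle and 71.9, 58.2 and 59.9 CPM with DOX (log2 fold change -0.72 ± 0.11, adjusted p = 0.0182).

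PCNA itself had no call in either line, with log2 fold changes of -0.04 ± 0.09 in DU-145 (adjusted p = 0.707) and -0.68 ± 0.18 in LNCaP-AI (adjusted p = 0.0564). FEN1, which trims the flaps of Okazaki fragments, was at 141, 138 and 132 CPM with vehicle and 132, 117 and 107 CPM with DOX in DU-145 (log2 fold change -0.21 ± 0.08, adjusted p = 0.0286). In LNCaP-AI, FEN1 was at 157, 142 and 142 CPM with vehicle and 112, 84.8 and 82.2 CPM with DOX (log2 fold change -0.66 ± 0.14, adjusted p = 0.0321). LIG1, the ligase that seals them, was at 28.0, 24.7 and 26.8 CPM with vehicle and 18.9, 24.3 and 17.5 CPM with DOX in DU-145. It was called lower there (log2 fold change -0.39 ± 0.11, adjusted p = 0.00694), with DOX 2 close to the lowest vehicle sample, and had no call in LNCaP-AI (-0.80 ± 0.23, adjusted p = 0.0728). PCNA overlapped in DU-145, and all its LNCaP-AI DOX samples (253, 172 and 188 CPM) were below vehicle (294, 377 and 309.7 CPM).

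Of the 9 polymerase and primase subunits, 6 were called lower and 2 higher in DU-145, and 5 lower and 0 higher in LNCaP-AI. POLE2, a subunit of polymerase epsilon, was at 94.5, 101 and 96.4 CPM with vehicle and 62.9, 59.5 and 67.6 CPM with DOX in DU-145 (log2 fold change -0.62 ± 0.07, adjusted p = 8.09e-07). In LNCaP-AI, it was at 21.3, 33.2 and 26.2 CPM with vehicle and 15.7, 11.5 and 10.1 CPM with DOX (log2 fold change -1.11 ± 0.24, adjusted p = 0.0344). POLE2 changed by nearly the same on both sides (-0.98 and -0.91). POLD3, of polymerase delta, was at 69.6, 67.6 and 69.2 CPM with vehicle and 58.7, 60.8 and 57.7 CPM with DOX in DU-145 (log2 fold change -0.22 ± 0.07, adjusted p = 0.0120). In LNCaP-AI, POLD3 was at 57.4, 65.3 and 58.7 CPM with vehicle and 41.8, 29.2 and 31.3 CPM with DOX (log2 fold change -0.83 ± 0.15, adjusted p = 0.0251). Both subunits of polymerase alpha were lower in DU-145 (POLA1 -0.60 ± 0.08, POLA2 -0.26 ± 0.08), and in LNCaP-AI POLA2 was called (-1.0 ± 0.23) while POLA1 was not (-0.93 ± 0.30, adjusted p = 0.0947). The catalytic subunits POLD1 (-0.28 ± 0.09) and POLE (-0.31 ± 0.08) were called in DU-145, and in LNCaP-AI POLD1 was (-0.67 ± 0.16) and POLE was not (-0.70 ± 0.21, adjusted p = 0.0770). POLD2 and PRIM2 were the subunits that went the other way in DU-145. POLD2, of polymerase delta, was at 91.7, 103 and 88.5 CPM with vehicle and 112, 114 and 112 CPM with DOX (log2 fold change 0.26 ± 0.07, adjusted p = 0.00556). In LNCaP-AI, POLD2 was at 309.9, 234 and 266 CPM with vehicle and 269, 277 and 279 CPM with DOX, with overlap and no call (0.03 ± 0.11, adjusted p = 0.883). PRIM2, the large primase subunit, was at 46.5, 48.8 and 46.7 CPM with vehicle and 56.5, 55.9 and 58.3 CPM with DOX in DU-145 (log2 fold change 0.27 ± 0.07, adjusted p = 0.00438). In LNCaP-AI, it overlapped (30.5, 36.7 and 34.9 CPM with vehicle, 33.7, 25.8 and 24.4 CPM with DOX; adjusted p = 0.267). Its partner PRIM1 was called lower in LNCaP-AI (-0.99 ± 0.22, adjusted p = 0.0385) and had no call in DU-145 (-0.15 ± 0.08, adjusted p = 0.112).

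RPA, the single-strand binding complex, had 1 subunit called in each line. RPA2 was at 60.2, 66.7 and 60.9 CPM with vehicle and 83.8, 76.1 and 77.9 CPM with DOX in DU-145, apart and higher (log2 fold change 0.34 ± 0.07, adjusted p = 0.000685). In LNCaP-AI, RPA2 overlapped between groups, at 84.9, 109 and 92.5 CPM with vehicle and 90.6, 72.0 and 75.1 CPM with DOX (-0.27 ± 0.14, adjusted p = 0.243). RPA1 was called lower in LNCaP-AI, at 322, 299 and 274 CPM with vehicle and 238, 217 and 209 CPM with DOX (-0.43 ± 0.09, adjusted p = 0.0362). In DU-145, RPA1 overlapped, at 213, 217 and 223 CPM with vehicle and 225, 202 and 211 CPM with DOX (-0.03 ± 0.07, adjusted p = 0.702). RPA3 had no call in either line (-0.02 ± 0.09 and -0.30 ± 0.12).

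The nucleotide supply genes make deoxynucleotides. In DU-145, TK1 and DUT were called lower, and in LNCaP-AI 4 of 5 were, RRM2 being the exception (-0.97 ± 0.25, adjusted p = 0.0553). TK1, which salvages thymidine, was at 161, 153 and 143 CPM with vehicle and 108, 119 and 107 CPM with DOX in DU-145 (log2 fold change -0.46 ± 0.07, adjusted p = 2.73e-05). LNCaP-AI samples were at 197, 149 and 155 CPM with vehicle and 92.1, 90.2 and 86.0 CPM with DOX (log2 fold change -0.90 ± 0.12, adjusted p = 0.0147). TK1 was apart in both lines. RRM1, the large subunit of ribonucleotide reductase, overlapped in DU-145 at 228, 230.2 and 224 CPM with vehicle and 260.4, 223 and 235 CPM with DOX. In LNCaP-AI, RRM1 was at 326, 322 and 265 CPM with vehicle and 201, 168 and 155 CPM with DOX (-0.80 ± 0.14, adjusted p = 0.0203). DUT, which removes dUTP, gave -0.44 ± 0.08 (adjusted p = 6.28e-05) and -0.76 ± 0.18 (adjusted p = 0.0422). TYMS, which makes thymidylate, was called lower in LNCaP-AI (-0.69 ± 0.16, adjusted p = 0.0431), but 39.9% of its exon bases lie opposite exons of ENOSF1, so some of its reads may be of that gene.

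**Figure D3:**
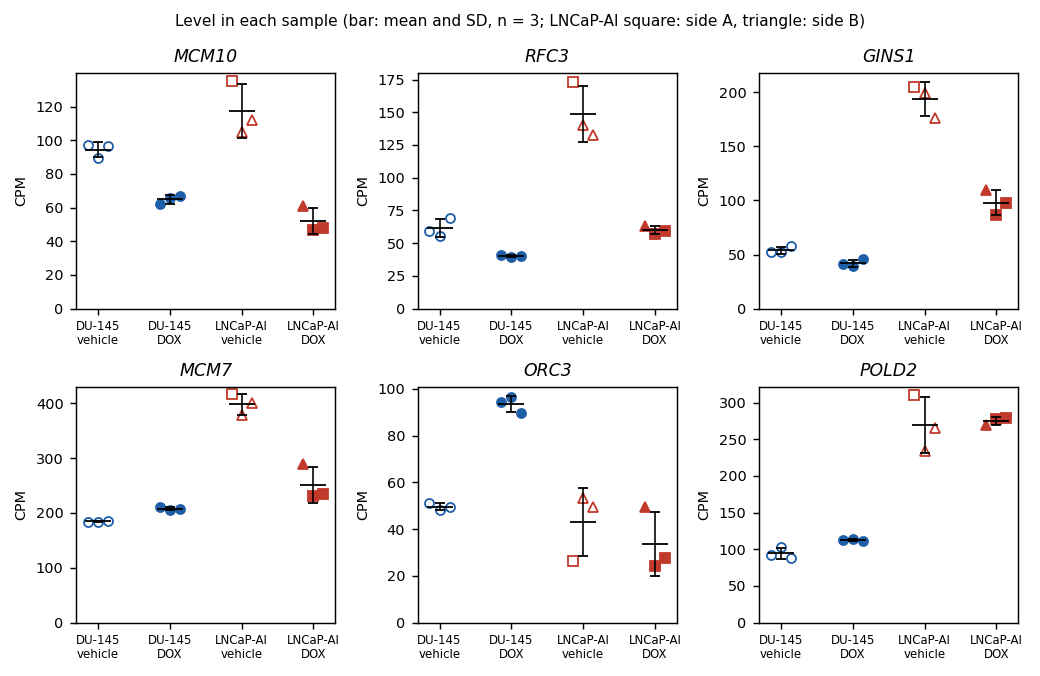
CPM of 6 members in each sample of the 4 groups (points; bar and whiskers are mean and SD, n = 3), with LNCaP-AI samples drawn as squares on side A and triangles on side B. MCM10, RFC3 and GINS1 were lower with DOX in both lines, MCM7 went in opposite directions, ORC3 rose in DU-145 and followed the side in LNCaP-AI, and POLD2 differed mainly between lines.

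**Figure D4:**
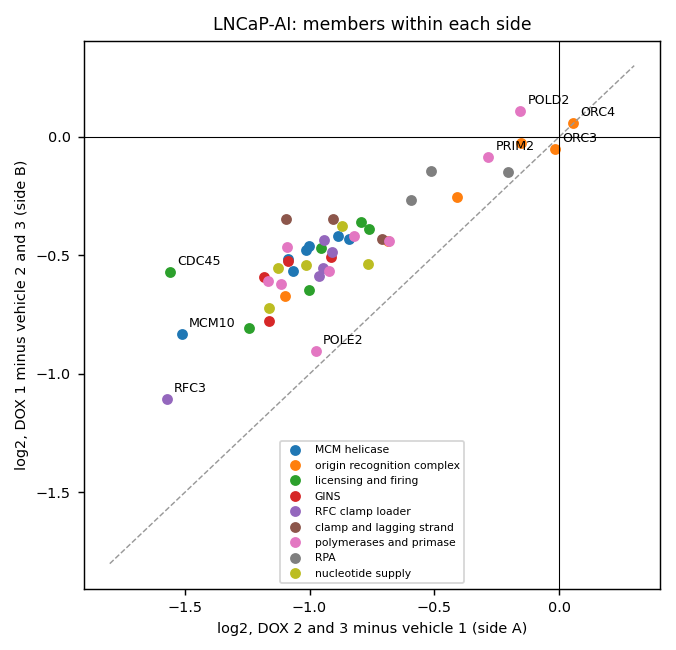
Log2 difference of DOX from vehicle for each member of LNCaP-AI on side A (x axis) and side B (y axis), coloured by role. No test is attached; 46 of 48 points are negative on both axes, ORC4 and POLD2 are not, and most lie above the dashed line of equal change, so that the difference was larger on side A.

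Whether the DOX effect differs between the lines was tested directly as an interaction over all 12 samples. The effect was called more negative in LNCaP-AI for 9 members (MCM2, MCM7, MCM10, CDC6, GINS1, RFC2, RFC3, RPA2 and RRM1) and more positive for 0, where 9.18% of 16800 genes were called, 3.76% in the first and 5.43% in the second direction. For 32 members the unadjusted p was under 0.05, all in the first direction, against 4275 of 16800 genes in either direction. DESeq2 likewise called 0 more positive. The median of the difference was -0.55 (log2, LNCaP-AI minus DU-145), against -0.02 over all genes. MCM2 gave -0.84 ± 0.13 (adjusted p = 0.00373). It was at 139, 137 and 129 CPM with vehicle and 147, 141 and 138 CPM with DOX in DU-145, and at 330.3, 263 and 270.3 CPM with vehicle and 180.4, 159.7 and 155 CPM with DOX in LNCaP-AI. MCM2 was called in all 19 alternative fits of this comparison, and MCM7 (-0.80 ± 0.12, adjusted p = 0.00327), RFC2 (-0.69 ± 0.12, adjusted p = 0.00733) and RRM1 (-0.84 ± 0.15, adjusted p = 0.00858) in 18. The others were less stable: RPA2 (-0.58 ± 0.16, adjusted p = 0.0492) was called in 6, MCM10 (-0.60 ± 0.16, adjusted p = 0.0411) in 8, GINS1 (-0.58 ± 0.14, adjusted p = 0.0276) in 10, and RFC3 (-0.66 ± 0.15, adjusted p = 0.0199) and CDC6 (-0.63 ± 0.14, adjusted p = 0.0205) in 14. ORC3 had the most negative value, -1.23 ± 0.40, with an adjusted p of 0.0849. The count moved with single samples, from 4 without DU-145 DOX 1, LNCaP-AI DOX 2 or LNCaP-AI DOX 3 and 5 without DU-145 vehicle 1 to 17 without LNCaP-AI vehicle 1 and 37 without LNCaP-AI DOX 1.

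The vehicle samples were compared to see how the lines differ before silencing. With vehicle, 16 members were called lower and 12 higher in LNCaP-AI than in DU-145, where 65.1% of 15628 genes were called, 30.2% lower and 35% higher, and the median log2 difference was -0.06 (-0.12 to 0.08 over the alternatives). The groups did not overlap for 18 members lower and 16 higher, against 34.8% and 38.4% of all genes. Calls went both ways, and single subunits of one complex stood far apart. Levels between genes are given as CPM per kb of the canonical transcript, scaled over all 12 samples. GINS1 was at 17.4 ± 0.92 (SD, n = 3) CPM per kb in DU-145 and 54.7 ± 3.8 in LNCaP-AI, a log2 difference of 1.62 (adjusted p = 1.71e-05), while GINS2 was at 19.9 ± 2.6 and 14.05 ± 1.5 and was called lower (-0.54, adjusted p = 0.00912). POLE2 was at 60.9 ± 1.8 CPM per kb in DU-145 and 14.9 ± 3.5 in LNCaP-AI (-2.07, adjusted p = 5.53e-05), and its catalytic partner POLE at 12.6 ± 0.58 and 9.12 ± 1.4 (-0.50, adjusted p = 0.0118). POLE2 thus exceeded POLE per kb in both lines, by much more in DU-145. POLD2 was at 62.3 ± 5.1 and 157 ± 20 (1.29, adjusted p = 0.000110), RFC3 at 28.2 ± 3.0 and 60.1 ± 7.8 (1.05, adjusted p = 0.000359), and TYMS at 128 ± 3.7 and 57.5 ± 2.3 (-1.20, adjusted p = 2.73e-05). Among the ring subunits, MCM2 and MCM7 were called higher in LNCaP-AI and MCM3, MCM5 and MCM6 lower. In DU-145, RRM2 (174 ± 7.4 CPM per kb) and PCNA (170.1 ± 23) led the list and did not differ beyond their spread, and in LNCaP-AI, PCNA (239.5 ± 34) led. ORC4 was lowest in both lines, at 5.65 ± 0.80 and 7.68 ± 0.87 CPM per kb, and in LNCaP-AI GINS3 (8.71 ± 1.9) was within its spread.

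**Figure D5:**
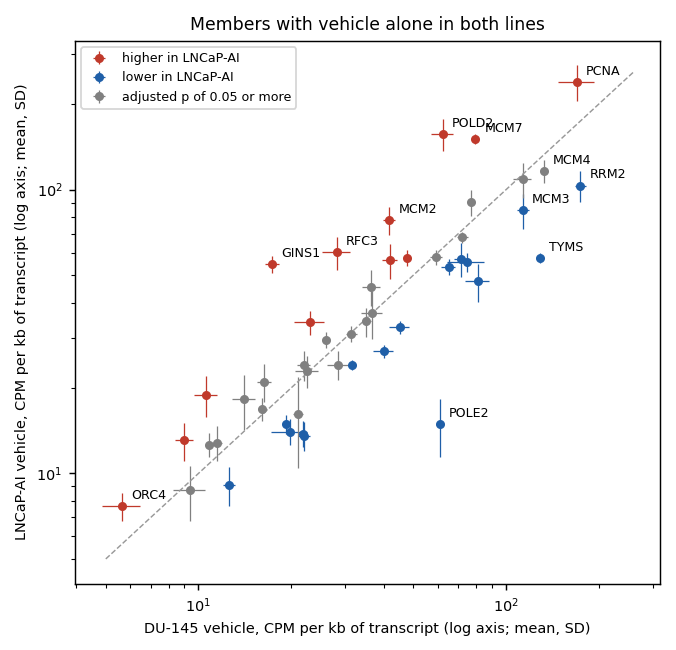
CPM per kb of transcript of each member with vehicle in DU-145 (x axis) and LNCaP-AI (y axis), both on log axes, as mean and SD of 3 samples, coloured by the call between lines; the dashed line marks equal levels. GINS1, POLD2, RFC3, MCM2 and MCM7 lie above it and POLE2 and TYMS below.

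Replication genes outside the 48 gave a like picture. Of 35 other replication factors, 20 were called lower and 3 higher in DU-145 (9 and 2 when all 12 samples shared 1 fit), and 18 lower and 1 higher in LNCaP-AI. In DU-145, these were 57.1% lower and 8.57% higher, against 25.3% and 26.3% of all genes. In LNCaP-AI, the shares were 51.4% and 2.86%, against 5.52% and 7.22% of all genes. DNA2, a nuclease and helicase of flap processing, was at 37.4, 35.1 and 41.0 CPM with vehicle and 16.4, 18.5 and 21.4 CPM with DOX in DU-145, and at 38.4, 38.4 and 36.7 against 20.7, 19.7 and 18.0 CPM in LNCaP-AI. Its log2 fold changes were about equal, -1.01 ± 0.10 (adjusted p = 1.2e-07) and -0.96 ± 0.09 (adjusted p = 0.0123). CLSPN, a fork checkpoint adaptor, went from 104, 106 and 102 to 54.1, 63.8 and 56.2 CPM in DU-145 and from 63.6, 64.9 and 64.2 to 37.1, 21.5 and 20.8 CPM in LNCaP-AI. Its log2 fold changes were -0.84 ± 0.07 (adjusted p = 2.4e-08) and -1.28 ± 0.24 (adjusted p = 0.0250). TOPBP1, needed for origin firing, went from 144, 145 and 144 to 101, 107 and 99.9 CPM in DU-145 and from 203, 190.4 and 179 to 118, 98.7 and 102 CPM in LNCaP-AI. That was a log2 fold change of -0.49 ± 0.07 (adjusted p = 4.28e-06) and -0.85 ± 0.10 (adjusted p = 0.0123). All 3 of these genes were apart in both lines. The chromatin assembly subunit CHAF1B was at 80.6, 77.9 and 69.7 CPM with vehicle and 66.1, 63.9 and 60.6 CPM with DOX in DU-145, and at 58.4, 54.6 and 53.3 against 34.4, 30.4 and 28.2 CPM in LNCaP-AI. It was called lower in both, with -0.26 ± 0.08 (adjusted p = 0.00728) in DU-145 and -0.84 ± 0.10 (adjusted p = 0.0123) in LNCaP-AI, without overlap. TOP2A, the topoisomerase that untangles sister DNA, went from 1386, 1328 and 1407 to 886, 835 and 828 CPM in DU-145 (-0.69 ± 0.07, adjusted p = 2.71e-07). In LNCaP-AI, TOP2A was at 442, 562 and 516 CPM with vehicle and 324, 157 and 152 CPM with DOX (-1.26 ± 0.32, adjusted p = 0.0527). The histone-fold polymerase epsilon subunit POLE4 rose in both lines. It was at 28.5, 30.3 and 31.2 CPM with vehicle and 42.4, 47.6 and 48.1 CPM with DOX in DU-145 (log2 fold change 0.62 ± 0.08, adjusted p = 4.16e-06). In LNCaP-AI, POLE4 was at 32.5, 36.2 and 35.0 CPM with vehicle and 50.8, 44.7 and 46.1 CPM with DOX (0.45 ± 0.09, adjusted p = 0.0277), and 0.48 and 0.51 within sides. TOP1, which relaxes DNA ahead of the fork and in transcription, rose in DU-145 (0.55 ± 0.07, adjusted p = 2.16e-06) and gave -0.05 ± 0.07 in LNCaP-AI.

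Of 21 other nucleotide supply genes, 7 were called lower and 2 higher in DU-145 (4 and 0 in the fit of 12 samples) and 4 lower and 1 higher in LNCaP-AI. In DU-145, these were 33.3% lower and 9.52% higher, against 25.3% and 26.3% of all genes. In LNCaP-AI, the shares were 19% and 4.76%, against 5.52% and 7.22% of all genes. CTPS1, which makes CTP, went from 118, 140.0 and 123 to 77.8, 80.2 and 78.1 CPM in DU-145 (-0.69 ± 0.07, adjusted p = 3.16e-07), and was at 139, 155 and 154 against 109, 62.4 and 63.5 CPM in LNCaP-AI (-0.93 ± 0.23, adjusted p = 0.0518). The mitochondrial thymidine kinase TK2 went from 18.3, 17.7 and 17.7 to 11.8, 9.85 and 11.7 CPM in DU-145 (-0.70 ± 0.11, adjusted p = 3.58e-05), and was at 34.3, 32.5 and 35.3 against 33.5, 27.3 and 29.4 CPM in LNCaP-AI (-0.18 ± 0.11, adjusted p = 0.307). Both were thus called lower in DU-145 alone, but CTPS1 was called lower in LNCaP-AI too in 8 of 14 alternative fits. By the interaction test, CTPS1 had no call between the lines (-0.21, adjusted p = 0.676) and was called in 1 of 19 alternative fits. TK2 was called (0.55, adjusted p = 0.0355), but in only 8 of 19 alternative fits. The nucleoside transporter SLC29A1 went from 80.7, 86.7 and 77.0 to 65.1, 66.9 and 67.3 CPM in DU-145 and from 83.4, 76.2 and 85.9 to 56.3, 42.6 and 41.3 CPM in LNCaP-AI. Its log2 fold changes were -0.29 ± 0.07 (adjusted p = 0.00195) in DU-145 and -0.81 ± 0.14 (adjusted p = 0.0225) in LNCaP-AI. The folate enzyme MTHFD1 was called lower in LNCaP-AI alone, at 239.6, 211 and 201 CPM with vehicle and 161, 160.3 and 153 CPM with DOX (-0.46 ± 0.09, adjusted p = 0.0269), and was at 298, 304 and 279.8 against 348, 308 and 317 CPM in DU-145. RRM2B, the ribonucleotide reductase subunit induced by p53, was at 86.7, 68.9 and 63.4 CPM with vehicle in LNCaP-AI. With DOX, it was at 86.2, 112 and 121 CPM there (0.54 ± 0.18, adjusted p = 0.0955). Its groups overlapped in both lines, and in LNCaP-AI DOX 1 lay just under vehicle 1.

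Markers of proliferation moved with the members. All 10 were called lower in DU-145 (4 when all 12 samples shared 1 fit) and 8 in LNCaP-AI, with medians of -0.49 and -1.16 and every fold change negative. Of all genes, 25.3% were called lower in DU-145 and 5.52% in LNCaP-AI. The summed level of these markers was 3451 to 3753 CPM with vehicle and 2489 to 2679 CPM with DOX in DU-145. In LNCaP-AI, the sum was 2648 to 2703 CPM with vehicle and 1042 to 1628 CPM with DOX. MKI67 was at 502, 489 and 569 CPM with vehicle and 316, 167 and 157 CPM with DOX in LNCaP-AI (-1.28 ± 0.29, adjusted p = 0.0386), and went from 1293, 1312 and 1136 to 1002, 944 and 895 CPM in DU-145 (-0.40 ± 0.08, adjusted p = 0.000389). CCNA2, a cyclin of S phase, went from 144, 129 and 144 to 67.9, 66.1 and 68.6 CPM in DU-145 (-1.04 ± 0.07, adjusted p = 6.7e-10) and from 125, 148 and 139.9 to 84.8, 43.4 and 41.9 CPM in LNCaP-AI (-1.28 ± 0.29, adjusted p = 0.0409). Neither gene overlapped between groups in either line. CDKN1A, the cell cycle inhibitor p21, rose in both lines. It was at 44.1, 38.2 and 39.9 CPM with vehicle and 175, 172 and 167 CPM with DOX in DU-145 (2.07 ± 0.07, adjusted p = 1.45e-13). In LNCaP-AI, CDKN1A was at 77.4, 66.4 and 78.6 CPM with vehicle and 733, 905 and 905 CPM with DOX (3.52 ± 0.13, adjusted p = 0.00233), lowest in DOX 1 among the DOX samples. How far the share of cycling cells entered the changes of the members was not tested. Prostate luminal markers moved with DOX too in LNCaP-AI: KLK3, KLK2 and TMPRSS2 were called higher (log2 fold changes 1.40, 2.13 and 1.89). The 4 epithelial markers were called higher in DU-145, with a sum of 826 to 880.5 CPM with vehicle and 1904 to 2022 CPM with DOX, and 0 of 4 in LNCaP-AI, where 1 had an unadjusted p under 0.05 and a positive fold change. Of all genes, 26.3% were called higher in DU-145 and 7.22% in LNCaP-AI. Stromal and blood markers summed to 31.2 CPM at most in any sample, and the part of these lists in the results was not tested.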

How the data were processed

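Total RNA was taken from cells cultured in triplicate, and TruSeq Stranded mRNA libraries were sequenced. Per the submitters' processing notes, CASAVA 1.8.2, STAR 2.7.0, DESeq2 1.24.0 and the build GRCh38.p7 were used. The deposited values are raw counts per gene, which the authors made from aligned reads without normalization. The tool that counted reads and its strand setting are not given in the sources used here. DOX dose and time come from the methods of the study. The study says of its experiments in general that distinct samples were used, and of these libraries only that cells were cultured in triplicate. If the triplicates were parallel cultures of 1 experiment, p-values measure the spread between those cultures alone. Replicates of a group differed by more than sampling noise in every pair (lowest chi-square per degree of freedom 2.38).

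Ensembl identifiers were matched to symbols and transcripts of GENCODE release 44, and 56993 of 58037 rows had a symbol. A gene was tested if 3 or more fitted samples had 10 or more counts, with edgeR 4.0.16 (TMM, quasi-likelihood) in R 4.3.3, within each line, between vehicle groups, and for the interaction. CPM were TMM-normalized within the line. The SE of a log2 fold change is its size divided by the square root of F. The members and lists were chosen with earlier results of these data known. Per-sample values are given for the member with the smallest p in each role and line, members called higher or in opposite directions, up to 8 with the smallest p in the interaction, and in the other lists the 3 with the smallest p per line. Some genes of these lists are not reported here. PCNA, CDC45, POLE4, TOP1 and RRM2B were singled out after their values were seen. Alternatives were DESeq2 1.42.0, its size factors, upper-quartile scaling, no filter, at least 1 CPM in 3 samples, leaving out each sample, all 12 samples in 1 fit, a replicate block and the side as covariate. The steps were tested on simulated data. Promoter sequences are from RefSeq. Reads carry no molecular identifiers.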

Additional observations from a re-analysis of the deposited data

Results flagged for a closer look

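The DOX effect differed between the lines by the interaction test (edgeR's quasi-likelihood test, adjusted p under 0.05, log2 fold change in LNCaP-AI minus that in DU-145) for 9 members and, among the other listed genes, for 6 replication factors, 3 nucleotide supply genes and 4 proliferation or epithelial markers. Among members, the difference was -0.84 for RRM1, -0.84 for MCM2, -0.80 for MCM7, -0.69 for RFC2, -0.66 for RFC3, -0.63 for CDC6, -0.60 for MCM10, -0.58 for GINS1 and -0.58 for RPA2. For MCM2, RFC2, RRM1 and CDC6, DU-145 had no call and LNCaP-AI a lower one. For MCM7, the lines were called in opposite directions, for RPA2 DU-145 alone was called, and for the other 3 both lines were lower. Among other replication factors, it was -0.88 for DTL, -0.81 for ASF1B, -0.68 for RNASEH2A, -0.63 for TIMELESS, -0.56 for TOP1 and -0.54 for CHAF1B. Among other nucleotide supply genes, it was -0.56 for MTHFD1, 0.70 for RRM2B and 0.55 for TK2. Among markers, it was -0.73 for BIRC5, -0.96 for KRT18, -1.82 for EPCAM and -1.11 for CDH1. CDKN1A, in none of these lists, rose more in LNCaP-AI, by 1.48. Groups of 3 are too small for a test of single outlying samples.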

How the results depend on the processing

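All 48 members passed the count filter in each comparison, so none was lost to depth. In DU-145, 24 members were called lower, and 10 lower and 1 higher (4083 genes called) when all 12 samples shared 1 fit; leaving out 1 sample gave 17 to 26 lower, 4 to 6 higher and medians of -0.24 to -0.17.

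In LNCaP-AI, the 27 lower members (2043 genes called) became 41 with DESeq2 (3517 genes), 41 with all 12 samples in 1 fit (3933), 42 with the side as covariate (6271) and 0 to 41 when 1 sample was left out (1 to 3538 genes). The median stayed between -0.89 and -0.69 when leaving out samples, and was -0.94 and -0.47 within sides. For the difference between lines, the 9 members (1543 genes) became 23 with DESeq2, 34 with the side as covariate (4109 genes) and 4 to 37 when 1 sample was left out (737 to 3471 genes; medians -0.70 to -0.46). Without a filter, 884 genes were called. Between vehicle groups, 9 members were lower without a filter in place of 16, and leaving out 1 sample gave 7 to 17 higher. The median there changed sign under upper-quartile scaling (0.03), without a filter (0.08) and in 3 of the fits that left out 1 sample (-0.12 to 0.033 in all). The cause of these shifts was not tested beyond the samples named.

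A fit with the replicate number as block called 0 members and 0 genes in LNCaP-AI (37 members had an unadjusted p under 0.05 and a negative fold change) and 1 member and 52 genes in the difference between lines, while DU-145 kept 25 lower and 5 higher by count. Without the block, 5003 of 16030 genes in LNCaP-AI had an unadjusted p under 0.05 in either direction. The replicate numbers gave no clear pairing of the samples. Deviations of same-numbered samples correlated at 0.127, -0.0912 and 0.0763 in DU-145 and at -0.94, -0.812 and -0.84 in LNCaP-AI. In DU-145, vehicle 1 and vehicle 3 still correlated best with the DOX sample of their own number, and vehicle 2 did not. In LNCaP-AI, no vehicle sample did.

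Signs changed only among members with no call. In DU-145, upper-quartile scaling gave -0.015 for RFC2 and -0.015 for ORC2. Leaving out 1 sample gave -0.029 to 0.039 for RFC2, from -0.029 up for ORC2, -0.01 to 0.175 for GINS3, -0.106 to 0.036 for RPA3, -0.126 to 0.064 for PCNA and up to 0.004 for RPA1. In LNCaP-AI, ORC4 was 0.001 with DESeq2, 0.051 with upper-quartile scaling, -0.048 without a filter, -0.002 at 1 CPM or more, 0.026 with all 12 samples, 0.002 with the replicate block, 0.057 with the side as covariate and -0.056 to 0.081 when leaving out samples. POLD2 was -0.015 without a filter, -0.025 with the side as covariate and -0.072 to 0.136 when leaving out samples.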
